A study of Equus caballus with 6 samples.

Results

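Adult articular cartilage was set against fetal limb tissue of the horse over all 6 arrays of the study, 6 of 6 samples. The 3 adult arrays held the superficial zone (the outer 10% of the cartilage depth), the middle zone (20 to 30%) and the deep zone (50 to 90%) of stifle cartilage at 15 years of age. The 3 fetal arrays held the intermediate interzone, the outer interzone and the transient cartilage of hindlimbs at gestational day 40. Each region was cut by laser capture from stained frozen sections of 10 µm, and its RNA was amplified by PCR and hybridised to 1 single-colour Agilent horse array. The sources used here name no breed, sex or treatment, and do not give the number of animals or which regions share one. The regions are therefore not replicates of a stage, and each stage is described by its 3 arrays. The fetal arrays lay on 1 slide and the adult arrays on another, so stage and slide cannot be told apart. With 3 arrays against 3, the smallest 2-sided p an exact permutation test could give is 0.1, and no p is attached to the values below unless a fit over regions is named.

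Articular cartilage is the smooth lining of joints, a tissue without vessels in which sparse chondrocytes keep up a matrix of type II collagen and aggrecan. It arises from the interzone, the cell layer between the cartilage models of neighbouring bones, while the transient cartilage of those models grows and is later replaced by bone. Fetal skeletal tissue is known for cell division and for imprinted growth genes such as IGF2 and H19, whereas adult chondrocytes divide little and secrete matrix, protease inhibitors and, under inflammatory signals, acute-phase proteins.

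The array reads each transcript through probes of 60 bases. The probes below are shown as examples of the groups described: 2 acute-phase gene names and 3 secreted proteins that were higher in adult cartilage, and the fetal RNA H19 and the cytoskeletal gene ACTB, which were lower. Other genes with differences as large are given by their values only. Genome positions were not analysed here, and each sequence is given 5′ to 3′ as in the deposited scanner files.
SAA1: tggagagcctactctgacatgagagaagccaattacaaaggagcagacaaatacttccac
SAA: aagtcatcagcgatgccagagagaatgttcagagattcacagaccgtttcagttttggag
ANGPTL7: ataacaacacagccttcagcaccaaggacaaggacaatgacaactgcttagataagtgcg
PCOLCE2: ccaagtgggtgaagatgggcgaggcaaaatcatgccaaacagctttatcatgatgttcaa
FN1: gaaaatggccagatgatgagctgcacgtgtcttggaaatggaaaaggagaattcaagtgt
H19: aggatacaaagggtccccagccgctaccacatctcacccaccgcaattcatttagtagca
ACTB: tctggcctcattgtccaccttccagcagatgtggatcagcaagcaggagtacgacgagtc
The probes for SAA1 and SAA, 2 gene names of the serum amyloid A family, had no run of more than 7 bases in common. Probes from different stretches of 1 RNA would also share no long run, so this cannot tell whether the names stand for 2 genes. RNA of close family members could also bind both, so the 2 names are not counted as independent.

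The stages differed in how many probes gave a measurable signal. Between 36.9% and 44.6% of the 43603 probes were well above background on the fetal arrays, against 26.4% in the superficial, 8.39% in the middle and 10.8% in the deep zone. No spot was saturated. The labels were checked against marker genes: of 7 cartilage markers, 6 to 7 were well above background on each fetal array and 4 (ACAN, SOX9, COMP and COL11A1) on each adult array, while COL2A1, COL9A1 and MATN3 were so on no adult array. Of 6 interzone markers, 6, 6 and 4 were measured in the intermediate interzone, outer interzone and transient cartilage, and 2, 2 and 1 in the superficial, middle and deep zones. Fewer cells of a type and less RNA per cell cannot be told apart in such samples. A gene differed by a median of 0.52 to 0.72 log2 units between fetal regions, by 1.06 to 1.65 between adult zones and by 0.91 to 1.92 between a fetal and an adult array. By this measure, which moves with the scaling, the superficial zone was about as near the fetal arrays (0.91 to 1.05) as the deep zone (1.09). It was farther from the middle zone (1.65). By Pearson correlation, which a shift of an array does not move, it was nearest the deep zone (0.80). Its correlation was 0.74 to 0.75 with the fetal arrays and 0.71 with the middle zone.

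Genes were compared where all 6 arrays gave a signal well above background, as was so for 604 genes. Its level is the log2 signal minus the array's 75th percentile over the 1765 probes that passed this filter, so that 0 marks that percentile and 1 unit is 2-fold. A difference is the mean of the 3 adult levels minus the mean of the 3 fetal levels, and a gap is the distance between the nearest adult and fetal arrays. All 3 adult arrays lay above all 3 fetal arrays for 143 genes (23.7%) and below them for 60 genes (9.93%), and for 401 genes the stages overlapped. Among the 1765 probes, 19.4% were higher and 14.4% lower on every adult array. These shares, not 0, are the background for the counts of named groups below.

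Of the 143 higher genes, 48 had a gap of at least 2-fold and 17 of at least 4-fold, and of the 60 lower genes 25 and 13. The higher genes were mostly dim in the fetal regions: their median fetal level was -6.57, against -1.75 for the lower genes, and 48 of the 143 (33.6%) lay within 2 log2 units of the lowest measurable level on all fetal arrays, against 75 of all 604 (12.4%). Their probes also held more G and C, with a median of 55% against 45% for the lower and the overlapping genes. The part of dim signal and base content in these calls was not tested.

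**Figure D1:**
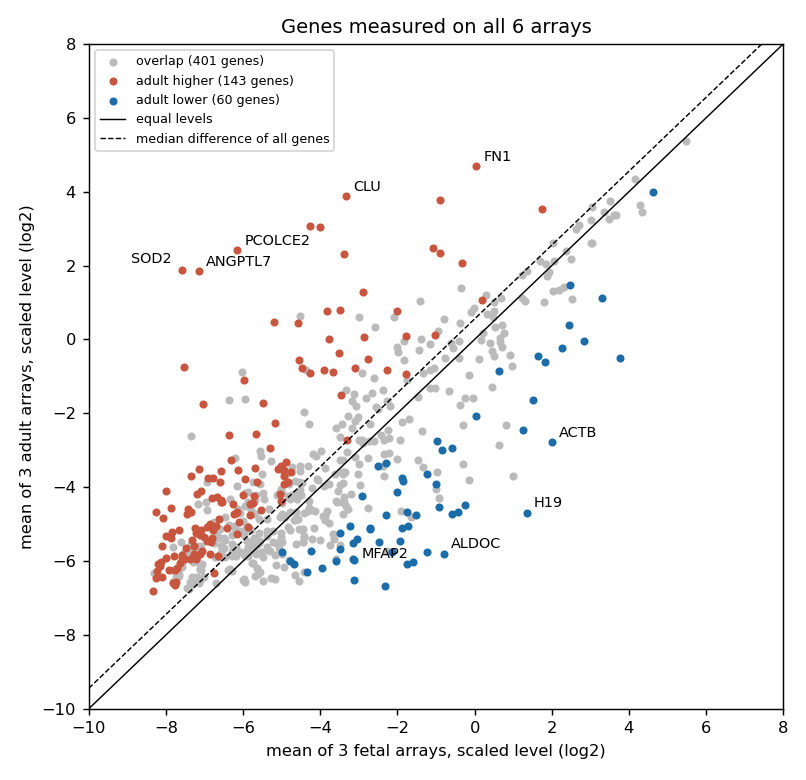
Mean level of the 3 adult arrays (vertical axis, log2) against the mean of the 3 fetal arrays (horizontal axis, log2) for the 604 genes measured on all 6 arrays. Red points are the 143 genes higher on every adult array, blue points the 60 lower on every adult array and grey points the 401 whose stages overlap; the solid line marks equal levels and the dashed line the median difference of 0.55. Many red points crowd the dim lower left corner, while FN1, CLU, SOD2, ANGPTL7 and PCOLCE2 stand far above the lines and H19, ALDOC, ACTB and MFAP2 far below.

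The median difference over the 604 genes was 0.55, and it moved with the scaling: it was 3.26 with the 75th percentile taken over all probes, 2.67 after quantile normalization, 1.27 with ribosomal protein genes set equal, 0.88 after normexp background correction and 0.01 in the authors' deposited table of signals divided by the array median. The split of higher to lower calls moved with it, from 143 to 60 (70.4% higher) as reported to 451 to 8 (98.3%) with all probes, 318 to 28 (91.9%) by quantile normalization, 250 to 33 (88.3%) with ribosomal protein genes set equal and 119 to 86 (58.0%) in the authors' deposited table. Small differences therefore have no settled direction. Of the 15 genes with the widest gap in each direction, 14 of the higher ones and 5 of the lower ones (H19, ALDOC, ATP5MC1, MFAP2 and ACTB) kept non-overlapping stages in the same direction under all 7 scalings.

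**Figure D2:**
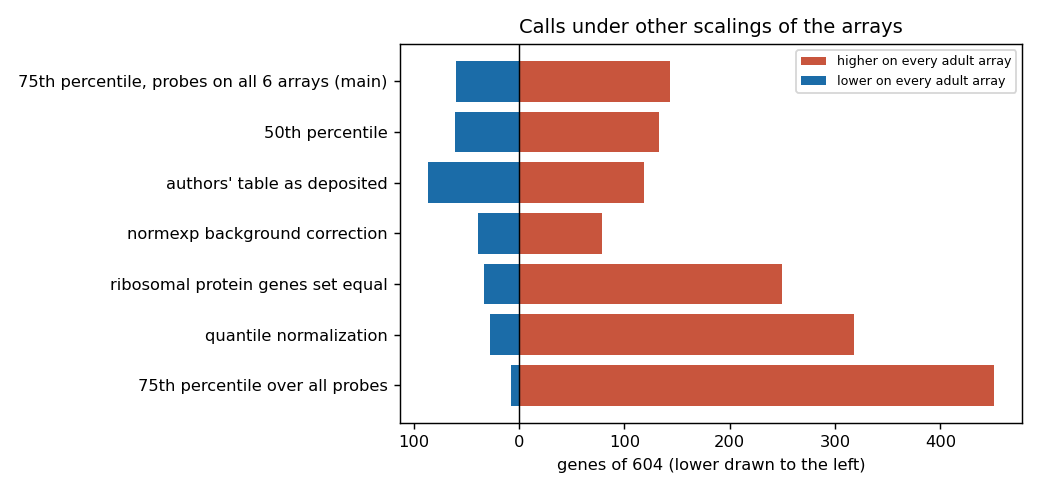
Number of the 604 genes higher on every adult array (red, to the right) and lower on every adult array (blue, to the left) under each scaling of the arrays. The red bar runs from 79 genes after normexp correction to 451 with the percentile of all probes, and the blue bar from 8 to 86 genes.

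The widest gap of all belonged to ANGPTL7, which encodes a secreted angiopoietin-like glycoprotein. Its fetal levels were -7.02, -7.33 and -7.09 (intermediate interzone, outer interzone, transient cartilage), and its adult levels 1.54, 2.61 and 1.39 (superficial, middle, deep zone). The fetal levels spanned 0.32 units and the adult levels 1.23, and the stages were 8.41 units apart at the nearest arrays. The mean difference was 8.99, or 509.9-fold, and between 6.81 and 11.70 over the 7 scalings. CLU encodes clusterin, an extracellular chaperone. Its fetal levels were -2.79, -3.64 and -3.55, in the order given for ANGPTL7, and its adult levels 3.00, 3.59 and 5.05. The adult mean was 148-fold higher, and the deep zone was the highest array.

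PCOLCE2, an enhancer of procollagen processing, had levels of -7.91, -7.65 and -2.90 in the fetal regions and 1.92, 1.38 and 3.96 in the adult zones, a 381-fold difference of means. Among fetal regions the transient cartilage was by far the highest, and it was still 4.28 units below the nearest adult zone. TIMP3, the matrix-bound inhibitor of metalloproteinases, had levels of -2.59, -6.82 and -3.38 against 3.69, 3.22 and 2.26. It was 160.0-fold higher in the adult zones, with differences of 7.29 to 7.58 over its 5 probes. FN1, fibronectin, was bright at both stages, at 0.87, 0.64 and -1.37 against 4.52, 3.49 and 6.06. Its difference was 25-fold, and all 9 of its probes were higher on every adult array, by 3.65 to 5.23 units. TM4SF1, a membrane protein of the tetraspanin-like L6 family, had fetal levels of -2.30, -3.58 and -6.14 and adult levels of 2.77, 3.46 and 2.88, a 132-fold difference.

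These 6 genes were the higher members of a list of adult cartilage secreted and membrane genes, of which 7 of 25 with a named probe were measured on all 6 arrays. The seventh, ABI3BP, an extracellular matrix protein gene, had levels of -0.04, -0.43 and -3.78 against 1.86, -0.77 and 2.06, and its stages overlapped through the middle zone. The list's median difference was 7.21, against 0.55 for all genes, but the list was drawn up with these results known and is not independent evidence of its direction. Its members TGFBI and CRISPLD1 were measured on every fetal and no adult array.

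**Figure D3:**
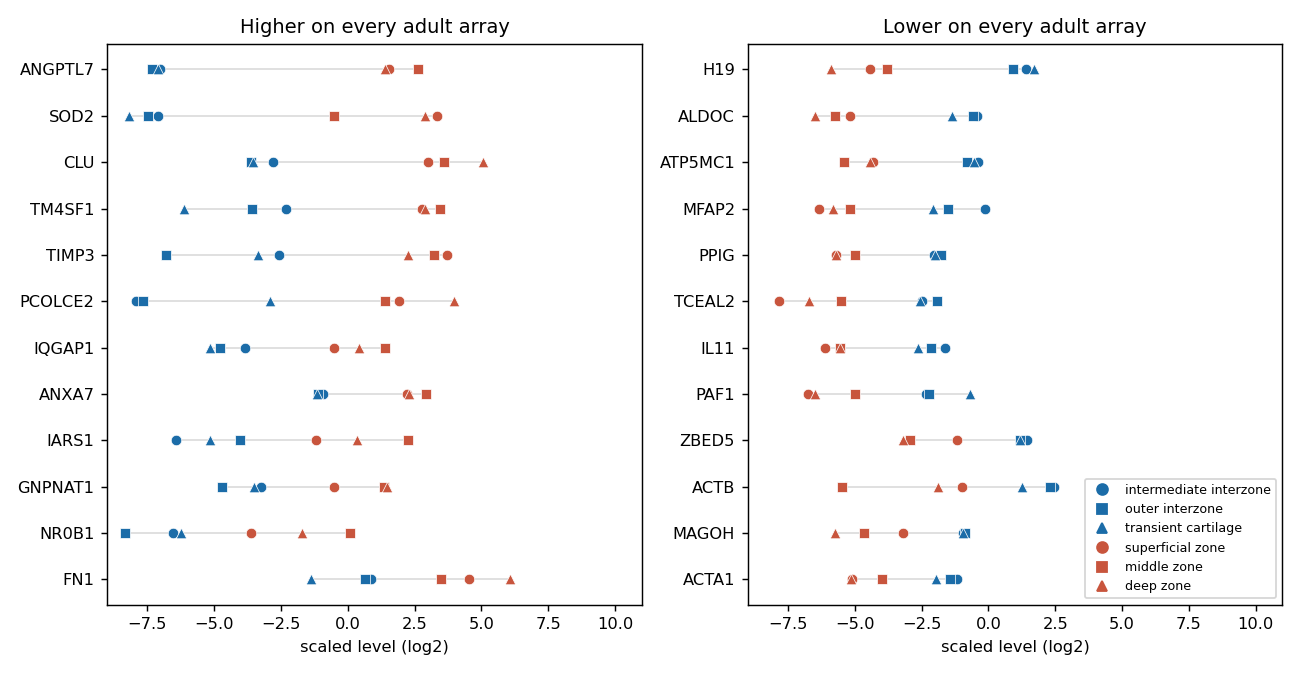
Level (log2, horizontal axis) of the 12 genes with the widest gap in each direction on each of the 6 arrays; blue symbols are fetal regions and red symbols adult zones, and grey lines join the lowest and the highest array. In the left panel every red symbol lies right of every blue one, by 8.41 units for ANGPTL7, and in the right panel every red symbol lies left of every blue one, by 4.71 units for H19.

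2 related gene names of innate defence had the largest lower limits on a stage difference. SAA1, an acute-phase serum amyloid A protein, was well above background on no fetal array and reached 5.97, 7.36 and 5.99 in the superficial, middle and deep zones. Against the lowest measurable fetal signal it was at least 33709-fold higher, and all 7 of its probes were measured on every adult array. SAA, a name of the same family that may not stand for a separate gene, stood at 4.69, 5.64 and 4.47 in the adult zones and was at least 11819-fold higher. NOS2, the inducible nitric oxide synthase, was measured at 0.47, -0.35 and 2.03, at least 637-fold above its fetal limit, by 7 of its 12 probes. SOD2, the mitochondrial superoxide dismutase that inflammatory signals induce, was measured at both stages. Its levels were -7.12, -7.47 and -8.18 in the fetal regions and 3.33, -0.53 and 2.87 in the adult zones, a difference of 712-fold, with the middle zone lowest among the adult arrays.

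Of the 47 members of the inflammation list with a named probe, 6 were measured on all 6 arrays: CLU, SOD2 and the transcription factor CEBPB were higher on every adult array, the cytokine IL11 was lower, and the iron-binding protein LCN2 and the prostaglandin synthase PTGS2 overlapped. The background shares were 23.7% and 9.93%. SAA1 and NOS2 were the list's members measured in the adult only, a class that held 34 of the 13685 named genes (0.248%). CEBPB was dim, at -6.93, -7.63 and -7.29 against -6.51, -4.72 and -6.23. LCN2 varied most between zones, at 1.5, -4.85 and -0.73, against -3.0, -2.72 and -4.30 in the fetal regions. IL11, an interleukin of the IL-6 family, was at -1.61, -2.14 and -2.63 in the fetal regions and -6.12, -5.55 and -5.57 in the adult zones, 12.3-fold lower, and its stages overlapped with the percentile of all probes and after quantile normalization.

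Immune cell markers were looked at beside this group. Of 12 such genes with a named probe, 6 to 7 were well above background on the fetal and 4 to 5 on the adult arrays, and CD14, TYROBP, CD74 and DQB were so on none. Their summed level ran from -3.01 to -1.78 in the fetal regions and from -4.27 to -0.25 in the adult zones. The receptor CSF1R and the chemokine CCL3 were higher on every adult array, by gaps of 0.45 and 0.03 units, with the middle zone highest for both at -2.51 and -0.86. PTPRC, the pan-leukocyte phosphatase, was measured on adult arrays only, at least 5.43-fold above its fetal limit by 2 of 9 probes. Other members went the opposite way: AIF1, a macrophage protein, was fetal only, at -2.43, -4.89 and -5.17 and at least 7.41-fold above its adult limit, CORO1A was fetal only with no fold to give, and CD68 was well above background on every array but that of the deep zone. The part of immune cells in the inflammatory genes was not tested.

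Among antioxidant and metal-handling genes, 6 of 31 with a named probe were measured, of which 3 were higher, 1 lower and 2 overlapped. The background shares were 23.7% and 9.93%. SOD2 is 1 of the 3 and was also counted in the inflammation list, so the lists are not separate results. CLU likewise was counted in both the inflammation and the adult cartilage list. MT1A, a metallothionein that binds zinc and copper, was at -3.36, -3.99 and -3.23 in the fetal regions and -0.11, -1.11 and 0.09 in the adult zones, 8.88-fold higher. The ferritin chains that store iron went opposite ways. FTH1, the heavy chain, was 3.48-fold higher, at 2.14, 1.91 and 1.19 against 4.95, 3.43 and 2.25, and overlapped after quantile normalization and in the authors' deposited table. FTL, the light chain, was 4.33-fold lower, at 0.24, -0.23 and 0.11 against -3.0, -2.23 and -0.98. The FTL difference was positive with the percentile of all probes, and its stages overlapped with ribosomal protein genes set equal.

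Several of the widest adult gaps lay outside these groups. ANXA7, a calcium- and membrane-binding annexin, was the tightest of them, at -0.93, -1.11 and -1.16 against 2.20, 2.94 and 2.27, and 11.6-fold higher. IQGAP1, a scaffold of the cortical cytoskeleton, was at -3.83, -4.79 and -5.14 against -0.53, 1.40 and 0.43, and 32.4-fold higher. IARS1, the isoleucine tRNA synthetase, was 50.9-fold higher and GNPNAT1, an enzyme of hexosamine synthesis, 24-fold. NR0B1, an orphan nuclear receptor, was 39.1-fold higher but dim in the fetal regions, where it lay at -6.56, -8.33 and -6.23. The other genes among the 15 widest gaps, SOWAHD and LENEP, were dim too. They were 8.13-fold and 12.8-fold higher, and LENEP overlapped after normexp correction.

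In the other direction the widest gap was that of H19, an imprinted noncoding RNA expressed from the maternal allele and abundant in fetal tissue. Its levels were 1.41, 0.93 and 1.70 in the intermediate interzone, outer interzone and transient cartilage and -4.42, -3.78 and -5.89 in the superficial, middle and deep zones. The fetal arrays spanned 0.77 units and the adult mean was 65.9-fold lower. Its gap of -4.71 units was the only one of at least 16-fold among the 60 lower genes, against 8 such gaps among the 143 higher ones. Over the 7 scalings its difference ran from -6.59 to -3.34.

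IGF2, the fetal growth factor encoded beside H19, was measured in all fetal regions, at 1.86, 1.35 and 1.20, and on no adult array. Its fetal mean was at least 368-fold above the adult limit. 1325 of the 13685 named genes (9.68%) were measured on every fetal and no adult array, as far fewer probes were above background on the adult arrays. This class is the background for the fetal-only counts. Of the 13685 genes, 5158 were well above background on no array. Among the 3993 genes measured on each of the 3 fetal arrays, 1325 were fetal only. A list of genes often measured in the fetal regions can therefore exceed 9.68% without differing from other such genes. Of 18 imprinted genes with a named probe, H19 was the only one measured on all 6 arrays, and 7 (IGF2, IGF2R, CDKN1C, PEG3, SGCE, SNURF and BLCAP) were fetal only. CDKN1C, an inhibitor of cyclin-dependent kinases, was at -0.86, -0.69 and 0.21, at least 97.4-fold above its adult limit. PEG3, a zinc finger protein expressed from the paternal allele, was at least 33.2-fold and IGF2R, the receptor that clears IGF2, at least 6.76-fold above it. In the IGF and growth axis, none of 19 members was measured on all 6 arrays and 6 were fetal only. They included the binding protein IGFBP2, at least 30.0-fold higher, and the RNA-binding protein IGF2BP2, at least 31.8-fold higher in the fetal regions.

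**Figure D4:**
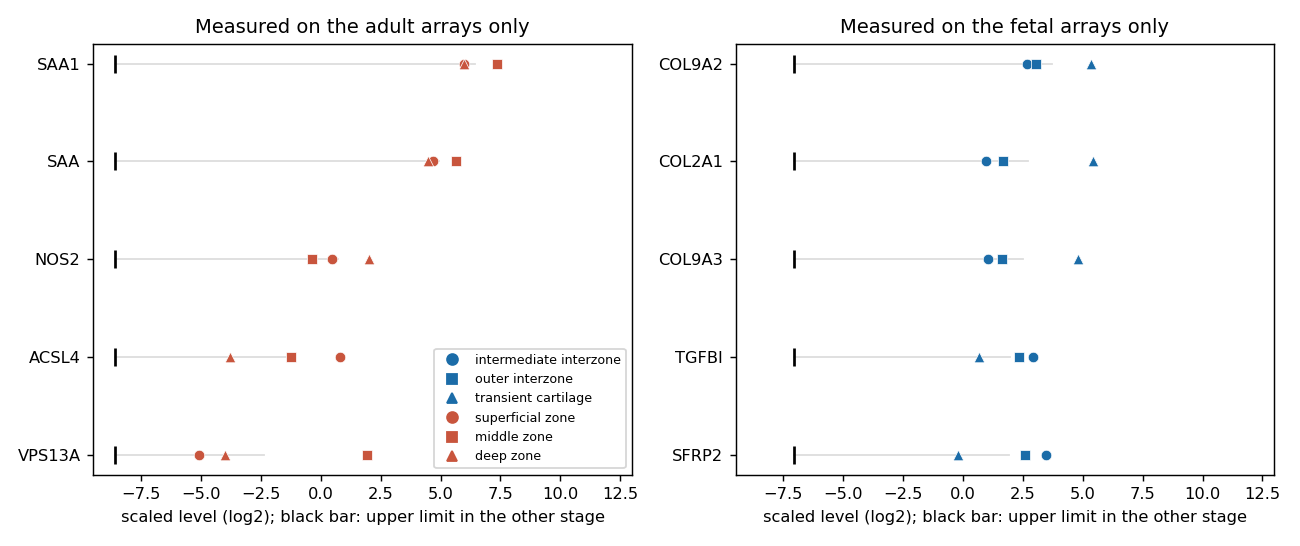
Level (log2, horizontal axis) of the 5 genes with the largest bound measured on all adult arrays and on no fetal array (left panel) and the reverse (right panel). Each symbol is 1 array, the black bar is the upper limit in the other stage and the grey line runs from it to the mean of the stage that was measured; SAA1 lies farthest from its limit in the left panel and COL9A2 in the right one.

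Of 29 cartilage matrix genes with a named probe, 6 were measured on all 6 arrays and 8 on every fetal and no adult array. Of the 6, 1 was higher and 5 overlapped, with a median difference of 0.31 against 0.55 for all genes. COMP, a pentameric glycoprotein that binds collagen, was the higher one, at -2.44, -1.69 and 1.42 against 2.71, 1.88 and 6.73. The gap was 0.46 units between transient cartilage and the middle zone, the difference of means was 25.6-fold, and the stages overlapped after quantile normalization and in the authors' deposited table. ACAN, aggrecan, overlapped: transient cartilage, at 1.87, lay with the superficial zone at 1.05 and the deep zone at 2.90, while the interzone layers stood at -5.16 and -2.99 and the middle zone at -2.10. SOX9, the chondrocyte transcription factor, was at -2.78, -0.95 and 0.56 against -1.81, 0.48 and -0.96. The fibrillar collagen genes COL11A1 and COL27A1 overlapped as well, at -0.93, 0.23 and 3.13 against -0.81, -5.83 and -0.28 for COL11A1.

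PRG4, which encodes the lubricant lubricin, also overlapped. Both interzone layers (3.86 and 3.37) and the superficial zone (5.02) were high, and low levels were found in transient cartilage (-5.78) and the middle zone (-3.27), with the deep zone at 0.11. Differences between regions within a stage thus exceeded the difference of the stage means, which was 0.14.

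The 8 fetal-only members of the cartilage list compare with 9.68% of all named genes in that class. Between 17 and 25 members of the list were measured per fetal array. Of the 3993 genes measured on each fetal array, 1325 were fetal only. COL2A1, the main collagen of cartilage, was at 0.97, 1.68 and 5.42 in the fetal regions, highest in transient cartilage, and at least 857-fold above its adult limit. 5 of its 6 probes were measured on every fetal array. The type IX collagen genes went with it: COL9A2 was at 2.67, 3.06 and 5.35 and at least 1716-fold higher, COL9A3 at least 742-fold and COL9A1 at least 6.06-fold. MIA, a secreted cartilage protein, was at least 39.7-fold higher, LECT1 (chondromodulin), an inhibitor of vessel growth, at least 22.1-fold and the matrilins MATN2 and MATN1 at least 21.0-fold and 9.62-fold. All 8 were highest in transient cartilage among the fetal arrays, MATN2 by the narrowest margin (-2.48 against -2.50 in the outer interzone).

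MFAP2, a protein of elastic microfibrils, was at -0.15, -1.49 and -2.07 in the fetal regions and -6.33, -5.18 and -5.80 in the adult zones. It was 23.2-fold lower in the adult, with the intermediate interzone highest, and its difference ran from -5.08 to -1.83 over the scalings. Of 17 elastic fibre genes with a named probe, LOXL4 was the other one measured on all 6 arrays, with overlap, and 5 were fetal only (MFAP4, FBLN1, LTBP1, LTBP3 and LOXL2). Between 12 and 15 of the 17 were measured per fetal array. Neither of the 2 other collagen genes measured on all 6 arrays, COL16A1 and COL18A1, separated the stages. For COL16A1 the middle zone stood at 2.83 and the superficial and deep zones at -6.38 and -5.03, against 0.35 to 0.80 in the fetal regions. COL6A1, a chain of the pericellular type VI collagen, was fetal only, at least 34.3-fold, and so was CTHRC1, a secreted collagen-triple-helix protein, at -0.84, 0.96 and 3.00 and at least 273-fold.

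Small leucine-rich proteoglycans had 2 of 15 members measured, BGN (biglycan) and CHADL, both with overlap. Of the metalloproteinase and inhibitor list, TIMP3 and PCOLCE2 were the 2 measured members of 32, both higher as described above, and SERPINF1, CST3, MMP16 and ADAMTS6 were fetal only. Between 16 and 19 of the 32 were measured per fetal array.

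Genes of cell division lay nearly all outside the comparison on the adult side. Of 49 with a named probe, the replication helicase subunit MCM3 alone was measured on all 6 arrays, with overlap. The fetal-only class held 21 of them, against 9.68% of all named genes. Between 31 and 45 of the 49 were measured per fetal array. Of the 3993 genes measured on each fetal array, 1325 were fetal only. MKI67, the proliferation marker, was at -3.14, -1.34 and -2.09 in the fetal regions and at least 29.1-fold above its adult limit. NCAPG, a condensin subunit, was at least 78.1-fold higher, the microtubule regulator STMN1 71.9-fold as a lower limit, and CDK4, a kinase of the G1 phase, at least 23.1-fold higher. CDK1, CCNB1, CCNA2 and RRM2 were in the same class. Among chromatin genes, NPM1 and ANP32B overlapped and 6 of 28 were fetal only, with HMGB3 at least 54.5-fold higher. Between 23 and 27 of these 28 were measured per fetal array, so the 6 do not set the list apart from other genes measured there.

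Among limb patterning factors, PRRX2 and SOX11 were measured on all 6 arrays and overlapped, and 11 of 40 were fetal only. Between 23 and 29 of these 40 were measured per fetal array. Of the 3993 genes measured on each fetal array, 1325 were fetal only. HOXA10, which patterns the proximal hindlimb, was at 0.49, 0.61 and -1.26 and at least 128-fold above its adult limit. HOXC9 was at least 51.5-fold higher, OSR2, a factor of joint-forming mesenchyme, at least 48.9-fold and PRRX1, a factor of limb mesenchyme, at least 47.1-fold.

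Of the signalling genes of the WNT, BMP, TGF-beta, FGF and Notch pathways, 7 of 64 were measured on all 6 arrays, of which 2 were higher, 5 overlapped and 0 were lower. NOTCH1, a receptor, was at -5.25, -5.39 and -5.31 against -4.55, -1.99 and -2.27, and 5.19-fold higher. SMAD7, an inhibitor of TGF-beta signalling, was at -5.20, -7.98 and -8.23 against -1.76, -3.80 and -4.93, and 12.5-fold higher with a gap of 0.27 units. NOTCH1 overlapped after normexp correction and SMAD7 in the authors' deposited table. Of the 64 signalling genes, 10 were fetal only, and 37 to 43 were measured per fetal array. Of the 3993 genes measured on each fetal array, 1325 were fetal only, so the 10 do not set the list apart. SFRP2, a secreted WNT modulator, was at 3.44, 2.58 and -0.22 and at least 507-fold above its adult limit, and TGFBI, a matrix protein induced by TGF-beta, was at 2.92, 2.32 and 0.68 and at least 521-fold. Both were lowest in transient cartilage among the fetal regions.

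**Figure D5:**
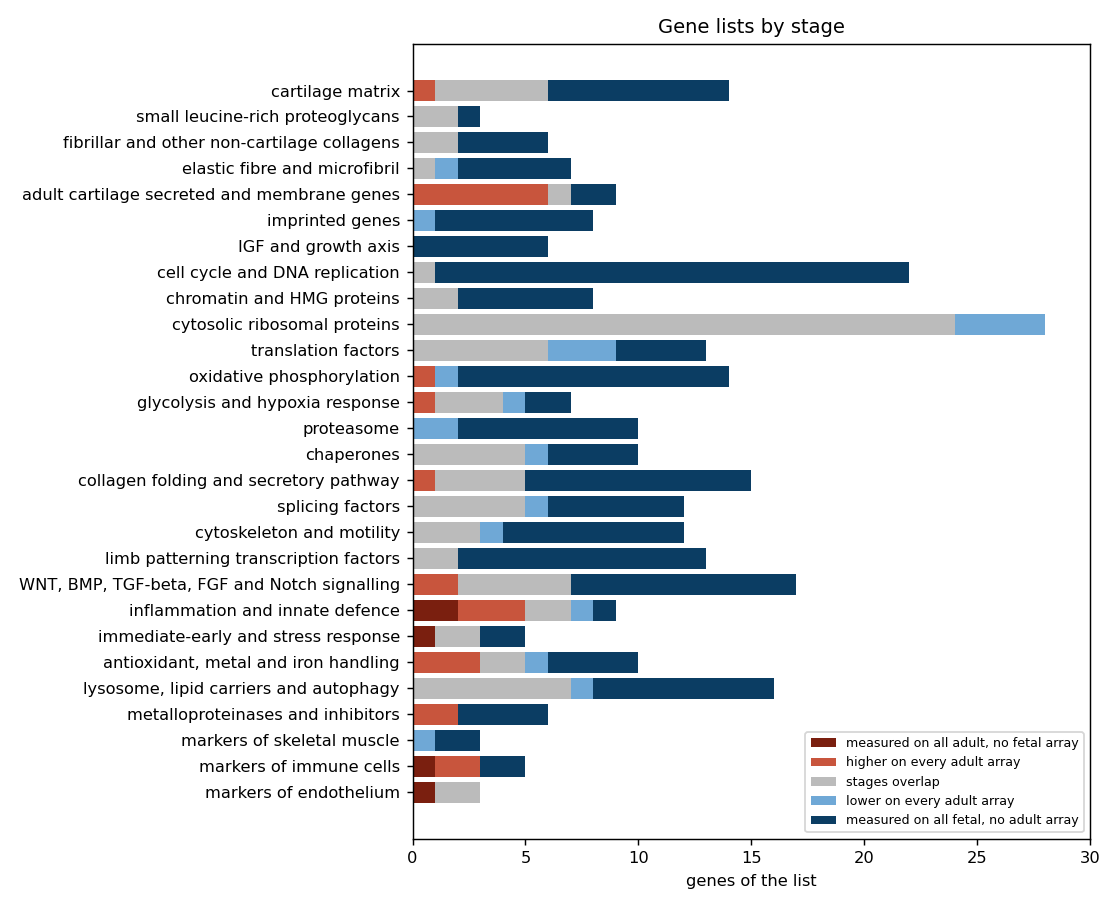
Number of genes of each list (horizontal axis) measured only on the adult arrays (dark red), higher on every adult array (red), overlapping (grey), lower on every adult array (light blue) or measured only on the fetal arrays (dark blue); lists with fewer than 3 such genes are left out. Dark blue fills most of the bars of many lists, among them cell cycle, limb patterning, signalling, oxidative phosphorylation and proteasome genes. Grey fills most of the bar of ribosomal proteins, and red most of that of the adult cartilage list.

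Single genes of the cytoskeleton (ACTB) and of energy metabolism (ALDOC and ATP5MC1) were among the lower ones with the widest gaps. Of 4 cytoskeleton genes measured on all 6 arrays, ACTB was the 1 lower, and VIM, MYH9 and CALD1 overlapped. ACTB, cytoplasmic beta-actin, was at 2.44, 2.30 and 1.27 in the fetal regions and -1.0, -5.46 and -1.90 in the adult zones, 27.6-fold lower, with the middle zone far below the other two. ALDOC, an aldolase of glycolysis, was at -0.43, -0.58 and -1.36 against -5.17, -5.75 and -6.48, and 32.2-fold lower. ATP5MC1, a subunit of the mitochondrial ATP synthase, was at -0.40, -0.80 and -0.54 against -4.33, -5.41 and -4.44, and 17.8-fold lower. Of 5 glycolysis and hypoxia genes measured on all 6 arrays, ALDOC was the 1 lower, and ALDOA (the second aldolase), BNIP3L and P4HA2 overlapped. The hypoxia-inducible factor HIF1A was 1.80-fold higher by a gap of 0.25 units and overlapped in the authors' deposited table. PGAM1, a glycolytic enzyme that was fetal only, was at least 83.5-fold higher in the fetal regions. In oxidative phosphorylation, NDUFV1 was higher, ATP5MC1 lower and 12 of 41 genes were fetal only. Between 33 and 40 of these 41 were measured per fetal array, so the 12 do not set the list apart from other genes measured there.

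Most genes of the protein synthesis machinery overlapped between the stages. Of 28 ribosomal protein genes measured on all 6 arrays, 24 overlapped, RPS7, RPL27A, RPS18 and RPS29 were lower and 0 were higher. Their median difference was -0.57 against 0.55 for all genes, and it was 2.14 with the percentile of all probes and 0.15 with these genes set equal, so the list has no settled direction. RPS6, for example, was at 4.14, 4.06 and 4.66 against 3.25, 3.61 and 4.10. Among 9 translation factors, EEF1A1, EIF3E and EIF3H were lower, and EIF3E and EIF3H were higher in the mean with the percentile of all probes. Members of other housekeeping lists that were lower were PSMD7 and PSMD9 of the proteasome, HSPB1 of the small heat shock proteins, HNRNPC of the splicing factors and CTSB, a lysosomal protease. The differences of PSMD7, PSMD9 and HSPB1 were positive with the percentile of all probes, and those of PSMD9 and CTSB after quantile normalization. Of the 7 scalings, PSMD7 lost its separation in this direction under 5, PSMD9 and HSPB1 under 4, CTSB under 3 and HNRNPC under 2. In the collagen folding and secretory list, SSR3 was higher, 4 members overlapped and 10 of 50 were fetal only, among them the collagen lysyl hydroxylase PLOD1, at least 62.0-fold. Between 45 and 49 of these 50 were measured per fetal array, so the 10 do not set the list apart from other genes measured there. In the lysosome list 7 members overlapped. One of them, GABARAPL1 of autophagy, stood at 0.10 and 0.79 in the superficial and deep zones and at -5.82 in the middle zone. Its fetal levels were -7.00, -6.74 and -5.33. Of its 4 probes, 2 were higher on every adult array and 2 overlapped, with differences of 4.71 to 5.33.

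The other lower genes with the widest gaps had roles in RNA handling and elsewhere. PPIG, a cyclophilin of splicing, was at -2.03, -1.76 and -2.0 against -5.68, -4.99 and -5.69, and 11.5-fold lower. PAF1, a subunit of an RNA polymerase II elongation complex, was 20.0-fold lower, TCEAL2, an elongation factor-like protein, 20.6-fold, and MAGOH, of the exon junction complex, 12.2-fold. ZBED5 was 13-fold, the mitochondrial ribosomal protein MRPL23 10.1-fold and TRIP6, a focal adhesion protein, 7.59-fold lower. PPIG, TCEAL2 and PAF1 overlapped after quantile normalization, ZBED5 and MAGOH with the percentile of all probes, and TRIP6 and MRPL23 with both.

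ACTA1, skeletal muscle alpha-actin, was 9.29-fold lower, at -1.17, -1.45 and -1.97 against -5.12, -3.98 and -5.14, and overlapped with the percentile of all probes and after quantile normalization. Of 19 muscle markers with a named probe, ACTA1 included, 5 to 10 were well above background on the fetal arrays and 3 to 4 on the adult arrays. The summed level of the 18 markers other than ACTA1 ran from -3.69 to -1.91 in the fetal and from -5.17 to -3.13 in the adult regions, and so overlapped between the stages. MYL2, MYL3, MYH1, MYH2 and NEB were well above background on no array, and MYL1 and TNNT1 were fetal only. CKM, muscle creatine kinase, went the other way, at -8.99, -8.82 and -8.35 in the fetal regions, the first of these not well above background, and -6.77, -4.90 and -6.39 in the adult zones. MYOG, a muscle transcription factor, was well above background on all adult arrays and in the intermediate interzone. The part of muscle RNA in these genes was not tested. The ACTB and ACTA1 probes shared no run of more than 5 bases. Probes from different stretches of 2 similar RNAs would also share no long run, so this cannot tell whether either RNA binds both. Of 6 blood markers, 1 to 2 were measured on the fetal and 0 to 1 on the adult arrays. For endothelium, 2 to 4 of 11 markers were measured on the fetal and 3 to 4 on the adult arrays, where VWF was adult only, at least 12.3-fold, while PECAM1 and CDH5 were above background on no array. Bone markers were most often measured in the superficial zone, 5 of 9, against 1 to 2 of 9 on every other array. There IBSP stood at -1.05, SPP1 at -0.56 and CTSK at 0.71, while BGLAP (-7.39) and SP7 (-7.92) were dim. SPP1 was as high in the middle zone (-0.56), and CTSK was also measured in transient cartilage (-4.77). BGLAP was well above background on every array but that of the deep zone.

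A limma fit over the regions, added as a check, called 28 genes higher and 19 lower in the adult at an adjusted p under 0.05 (Benjamini-Hochberg over 604 genes). It treats regions as replicates, and since regions may share an animal, its p-values may be too small. The fit used the same levels as the comparison above, so it is not independent evidence. It cannot tell stage from slide. All 47 genes were among those whose stages did not overlap. ANGPTL7 had an adjusted p of 0.000286, CLU of 0.0027, SOD2 of 0.00302 and H19 of 0.00384 by limma, and COMP, at 0.098, was not called.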

How the data were processed

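Gene expression was measured on 6 single-colour Agilent horse arrays, 1 per region, and groups were taken from the labels. Per the file headers, the authors deposited scanner output of Agilent Feature Extraction 10.7.3.1 with processed signals as an intensity on a linear scale after background subtraction. The deposited series table was found to hold a ratio of each processed signal to the median of its array (column medians of 1), and served as an alternative. Control spots (1417 of 45220) and 3 to 80 outlier spots per array were left out. Levels are log2 of the deposited processed signal minus the array's 75th percentile over probes well above background on all 6 arrays; spots of a probe were averaged.

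Of 43603 probes, 23881 were given 1 of 13685 gene names: 13535 were matched through gene numbers, 9053 through current and 211 through older symbols and 69 through accessions of a RefSeq table (assembly TB-T2T), 434 took a gene name from the description, and 579 kept a symbol that table lacks. Some gene names were read from descriptions by hand, and probes with 10 or more repeats of 2 bases were left unnamed; both steps were added after values had been seen. A gene is reported by its probe with the highest mean among those measured on all 6 arrays. A gene not well above background in a stage has a bound: the mean of the bright stage is set against a limit in the dim stage, averaged over its arrays, which is the dimmest signal called well above background there or the probe's own signal, whichever is higher. Arrays, not reads, limit the precision, and their number is small.

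Named genes were the 4 markers, the 15 widest gaps per direction among genes whose probes all separated the stages alike, the 4 members of each of 32 lists with the largest difference, and the 8 largest bounds per stage; 1 of them is not reported here. Members and lists (1279 genes, 922 with a named probe, 123 measured) were chosen with earlier results of these data known. Other members appear in counts or as examples chosen after their values were seen. Alternatives were other scalings, filters, gaps, left-out arrays and a limma 3.58.1 fit (R 4.3.3), tested on simulated data. Python 3.11.15, numpy 2.4.6, pandas 2.3.3 and scipy 1.17.1 were used.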

Additional observations from a re-analysis of the deposited data

How the results depend on the processing

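No paired analysis was possible because the labels give 1 sample per group and tie no regions to an animal. Counts below are genes higher, then lower, on every adult array, against 143 and 60 of 604 as reported. They were 451 and 8 with the 75th percentile over all probes, 318 and 28 by quantile normalization, 79 and 39 by normexp, 250 and 33 with ribosomal protein genes set equal, 86 and 29 of 358 with a stricter filter on dim probes, 48 and 18 of 212 for genes 4-fold above the lowest measured signal, and 1844 and 1872 of 13685 with no filter. A gap of at least 1 log2 unit left 48 and 25, a gap of at least 2 units 17 and 13, and limma over regions 28 and 19. Leaving out 1 array gave 156 to 232 higher genes (232 without the superficial zone) and 73 to 94 lower ones (94 without the middle zone), as fewer arrays must be separated. Probes measured on the 5 arrays other than the middle zone gave 227 and 204 of 981 genes. Genes measured in the adult only were 34, and 44 to 76 with 1 array left out (65 without the superficial, 76 without the middle and 67 without the deep zone). Genes measured in the fetal regions only were 1325, and 1389 to 2587 with 1 array left out (2587 without the superficial zone). Among named genes separated in the main comparison or the alternative, some differences turned positive. They were, with the percentile of all probes, RPL27A (0.27), RPS18 (0.35), RPS29 (1.22), EIF3H (0.54), EIF3E (0.66), PSMD9 (1.22), PSMD7 (1.72), HSPB1 (0.31), JUNB (2.38) and FTL (0.59). After quantile normalization they were CTSB (0.054) and PSMD9 (1.30), and without the deep zone AHSA1, a cochaperone (1.73, with -1.49 to 1.73 over left-out arrays). AHSA1 was also positive, with overlap, without the intermediate interzone (0.23) and with the percentile of all probes (2.41). Genes that overlapped under both also changed sign, 13 with that percentile and 9 after quantile normalization. That percentile raised every gene's difference by the same amount, moving the median from 0.55 to 3.26. The cause of the other changes was not tested. Ribosomal protein genes set equal, the gap of 2 units, the 4-fold filter and the left-out arrays for adult-only and fetal-only genes were chosen after seeing the data. The dim middle and deep arrays limit which genes can be compared.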

Other observations

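Of the probes measured on all 6 arrays, 878 had no gene name. Of these, 146 (16.6%) were higher and 172 (19.6%) lower on every adult array. The shares were 19.4% and 14.4% of all 1765 probes, which include these 878, and 23.7% and 9.93% of the 604 genes. Among probes without a name, more were thus lower than higher, the reverse of the named genes. The widest was a gap of 7.82 log2 units, by a probe for a lymph node cDNA that stood at -5.25, -5.60 and -6.61 in the fetal regions and at 3.18, 2.57 and 2.82 in the adult zones. The next, a cDNA of articular cartilage, was at -6.37, -7.28 and -7.80 against 2.17, 1.82 and 0.75. The widest lower gap was -3.83, by a probe described as unknown that stood at -0.74, -1.61 and -1.89 in the fetal regions and at -6.32, -5.72 and -5.91 in the adult zones.

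ACSL4, which activates long polyunsaturated fatty acids, and VPS13A, a lipid transfer protein, were measured on all adult and no fetal arrays. ACSL4 stood at 0.82, -1.26 and -3.80 in the superficial, middle and deep zones and was at least 146-fold above its fetal limit, while VPS13A was at -5.08, 1.91 and -3.99 and at least 74.2-fold. The other adult-only genes with large bounds were dimmer: TBC1D17 was at least 28.6-fold, EVX2 at least 20.0-fold and NGEF at least 19.4-fold higher.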
